A study of Populus tremula x Populus alba with 24 samples.

Results

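The data are transcript levels in poplar roots 8 h and 4 h after treatment with lipochitooligosaccharides (LCO), and the question addressed is which root genes differ between these times. The comparison takes the 3 libraries of 8 h against the 3 libraries of 4 h by their labels, 6 of the 22 libraries with values, and no control library enters it. The labels list 24 samples, 2 of which, from 30 min and 2 h, were not analysed here. Roots from 4 plants went into each library, from plants of the hybrid Populus tremula x alba clone 717-1B4, a widely used laboratory poplar, and the labels call the pools biological replicates.

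All plants, the control ones included, were grown for 10 days on vertical plates with low nitrogen (0.5 mM) and low phosphate (7 μM), at 24 °C with 16 h of light and 8 h of darkness. The 8 h and 4 h roots had stood for 1 h in 10 nM LCO purified from Rhizobium sp. IRBG74, beginning 3 h after dawn. Other libraries, used here only for context, come from roots taken at 15 min, 30 min, 1 h, 2 h and 24 h after the same treatment and from control roots taken at time 0, for which the labels name a solution with 0.005% ethanol without saying plainly whether these roots were immersed in it. Counted from the start of the immersion, the 8 h roots were taken 11 h after dawn and the 4 h roots 7 h after dawn, and counted from its end 12 h and 8 h after dawn. Both therefore lie in the light under either reading. LCO-free roots at 4 h or 8 h were not analysed here, so the later stage of the LCO treatment, the time since immersion and the time of day cannot be told apart in this step.

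LCO are chitin fragments carrying a fatty acid chain, which rhizobia and many mycorrhizal fungi release and which plants perceive through receptor kinases with LysM domains at the root cell surface. In legumes, perception sets off calcium oscillations in root cell nuclei and then transcription of symbiosis genes. Many plant genes, in roots too, also follow the circadian clock and change level through the day. Genes go by their identifiers below, because the tables do not pair these with names or functions, and markers of root or other tissues were not examined. No sequence is printed, since the tables hold none.

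The 6 libraries fell into their labelled times. Correlations of log2(TPM + 1) across the 25636 tested genes were 0.972 to 0.979 within 8 h and 0.967 to 0.976 within 4 h, and 0.902 to 0.942 between the times, where TPM is a relative transcript abundance, a level corrected for transcript length. Of the 42950 genes in the table, 9165, 9834 and 10070 were listed at 0 in the 8 h libraries, against 10762, 10385 and 10016 in the 4 h libraries. These ranges overlap, in replicate 3 of 8 h and replicate 3 of 4 h. The read depth behind the values is unknown. The 15 min libraries outside the comparison stand apart from each other, with replicates 1 and 3 on one side and replicate 2 on the other, and they enter the test through the spread that all groups share.

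Between 4 h and 8 h, 4762 of 25636 tested genes changed (18.6%), with 2428 genes higher at 8 h (9.47%) and 2334 lower (9.1%). Calls were made by limma where the p adjusted over all tested genes (Benjamini-Hochberg) was under 0.05, and 8778 genes (34.2%) had an unadjusted p under 0.05. Most changes were moderate: the median log2 fold change was 0.82 among the genes that rose and -0.91 among those that fell. Over all tested genes it was 0.01, a value that quantile normalization in part holds near 0. At least 2-fold changes were seen in 766 genes that rose and 912 that fell, and at least 8-fold changes in 29 and 23, all on the scale of TPM + 1. The smallest change called was 0.32 on the log2 scale. In these pooled roots, a lower level can come from fewer cells of a type or from less RNA per cell, and these cannot be told apart. The count was 8986 when only the 6 libraries were fitted and 10842 with library weights. Leaving out 4 h replicate 1 gave 1335 and 4 h replicate 2 gave 2858, and leaving out 8 h replicates 1, 2 and 3 in turn gave 2709, 2235 and 2428.

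**Figure D1:**
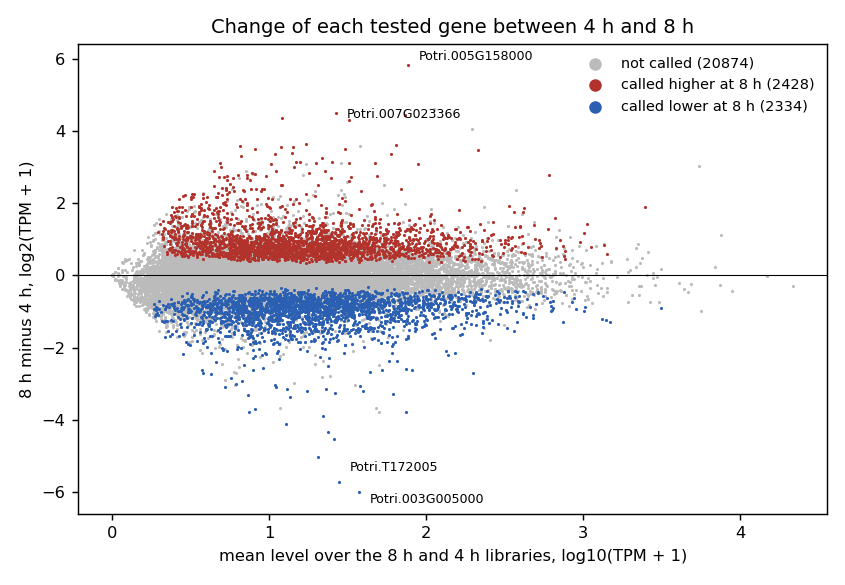
Each point is 1 of 25636 tested genes, with its mean level over the 6 libraries on the horizontal axis (log10(TPM + 1)) and the 8 h minus 4 h difference on the vertical axis (log2(TPM + 1)). The 2428 genes called higher at 8 h (red) and the 2334 called lower (blue) lie at all levels, most of them within 2-fold, and the 4 genes described in the text are labelled.

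The libraries of both times lay apart for nearly all called genes. All 8 h libraries stood above all 4 h libraries for 2422 of the 2428 genes that rose, and below them for 2323 of the 2334 that fell. Such separation is common here and says little alone: over all tested genes the libraries did not overlap for 51.1%, with all 8 h libraries higher for 27.0% and lower for 24.1%.

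How often genes changed depended on their level, and differently for the genes that rose and those that fell. Levels were grouped by the mean over the 22 libraries. Most of these precede 8 h, when genes that fell in the step were still high and genes that rose were still low. The grouping is thus not independent of the direction: it places genes that fell higher and genes that rose lower. Its part in the shares below was not tested. Among 8735 genes at 1 to 5 TPM, 611 rose (7.00%) and 238 fell (2.73%). Among 9515 genes at 5 to 20 TPM, 1034 rose (10.9%) and 912 fell (9.59%). At 20 to 100 TPM, 636 of 5814 genes rose (10.9%) and 887 fell (15.3%). At 100 to 500 TPM, 133 of 1357 rose (9.80%) and 270 fell (19.9%), so falls outnumbered rises among abundant genes and rises outnumbered falls among scarce ones. Above 500 TPM, 14 of 215 rose (6.51%) and 27 fell (12.6%). The median standard error of the change was 0.254 on the log2 scale at 1 to 5 TPM and 0.215 at 20 to 100 TPM, and its part in these shares was not tested. The pseudocount makes the change of genes at a few TPM smaller than the ratio of their TPM. The count in both directions moved with it, with 2785 genes higher and 2190 lower at a pseudocount of 5 TPM and 2099 higher and 2311 lower at 0.1 TPM.

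**Figure D2:**
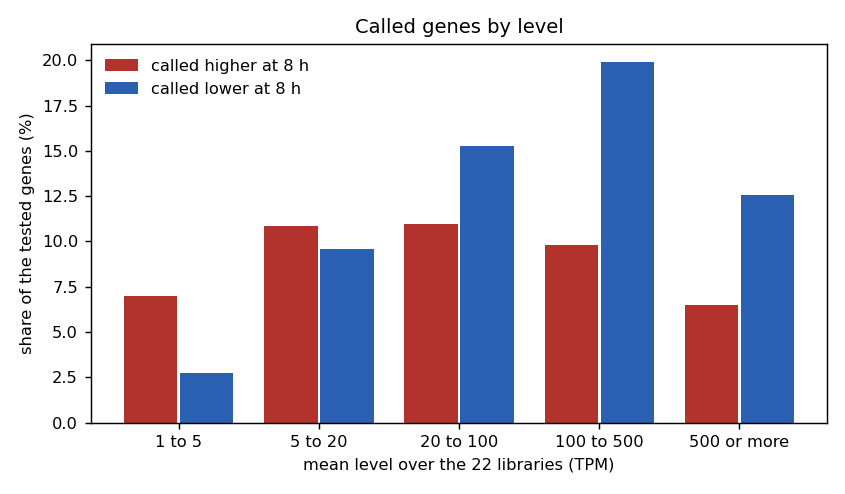
Bars give the share of tested genes called higher (red, left) or lower (blue, right) at 8 h than at 4 h, in percent, for 5 ranges of mean level over the 22 libraries in TPM. The share that fell is 2.73% in the lowest range and 19.9% at 100 to 500 TPM, while the share that rose lies between 6.51% and 10.9%.

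The genes that fell made up a larger part of the root transcripts before the step than the genes that rose. Together the 2334 genes that fell held 8.40%, 7.63% and 8.03% of the library total in the 8 h libraries, against 16.9%, 14.5% and 14.5% in the 4 h libraries. The 2428 genes that rose held 13.3%, 13.2% and 13.2% in the 8 h libraries, against 6.10%, 7.18% and 7.18% in the 4 h libraries. The direction of these shares follows from how the genes were chosen. The gain was spread over many genes: the 10 genes with the largest gains gave 15.2% of the summed gain and the top 100 gave 45.1%. For the losses these shares were 12.7% and 38.9%. Quantile normalization gives all libraries nearly the same total, so a change in total transcript output would not be seen.

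Outside the step, the medians of both sets moved less before 4 h than between 4 h and 8 h, and at 24 h they lay nearer to 8 h than to 4 h. The median level of the genes that rose was 8.70 TPM in the control, 11.0 TPM at 15 min, 7.60 TPM at 30 min, 7.92 TPM at 1 h, 8.02 TPM at 2 h, 9.23 TPM at 4 h, 17.6 TPM at 8 h and 16.4 TPM at 24 h. For the genes that fell it was 22.7, 19.4, 24.3, 24.8, 23.8, 21.8, 10.4 and 11.9 TPM at the same times. The median of all tested genes stayed between 8.36 and 8.55 TPM, which quantile normalization largely fixes in advance. Of the genes that rose, 1500 (61.8%) had their highest mean of the time course at 8 h and 787 (32.4%) at 24 h. Of the genes that fell, 1477 (63.3%) had their lowest mean at 8 h and 591 (25.3%) at 24 h. Over all tested genes 18.7% had their highest mean at 8 h and 14.7% their lowest, and at 24 h these shares were 20.3% and 17.5%. The genes were chosen on their 8 h and 4 h values. The larger move of the medians between these times and the high share at 8 h are therefore partly fixed by that choice.

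The 15 min libraries did not stand together for these genes. Each library was placed on a scale where the mean of 4 h is 0 and the mean of 8 h is 1, gene by gene, and the median over genes was taken. For the genes that rose, 15 min replicates 1 and 3 lay at 0.474 and 0.412 and replicate 2 at -0.284. For the genes that fell, these libraries lay at 0.657, 0.614 and 0.00323. Replicates 1 and 3 thus lay towards the 8 h levels in both sets, and replicate 2 did not. The control libraries lay between -0.100 and 0.000366 for the genes that rose and between 0.00830 and 0.153 for those that fell, and the 24 h libraries between 0.821 and 0.915 and between 0.685 and 0.868. Among the 4 h libraries, replicate 1 was farthest from 8 h, at -0.153 and -0.152, against 0.0406 and 0.0659 in replicate 2 and 0.110 and 0.0862 in replicate 3. The labels give no day of growth, extraction or sequencing for single libraries, so a batch that runs with time cannot be told apart from time itself.

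**Figure D3:**
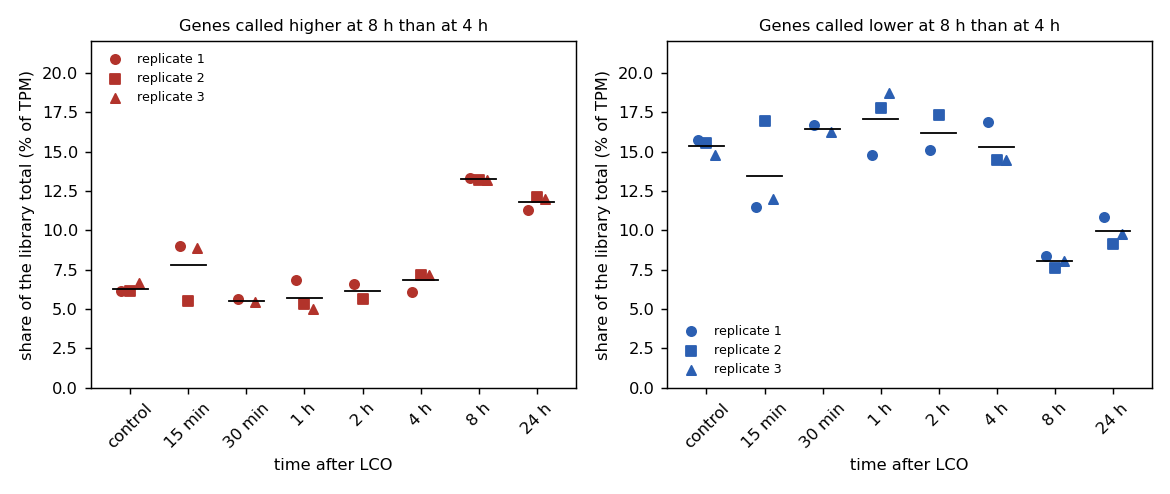
Points give, for each of the 22 libraries, the summed TPM of the 2428 genes called higher (left, red) and of the 2334 genes called lower (right, blue) at 8 h than at 4 h, in percent of the library total, by time after LCO. Black lines are group means. The 8 h libraries lie at 13.2% to 13.3% on the left and 7.63% to 8.40% on the right, the 24 h libraries lie next to them, and 15 min replicates 1 and 3 lie apart from replicate 2.

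A comparison that shares no library with the step is 24 h against control. These are about a day apart and so near the same time of day, not exactly so if control roots were not immersed. They also differ in LCO treatment, in plant age and possibly in immersion, which cannot be told apart here. Of the 2428 genes that rose between 4 h and 8 h, 1708 (70.3%) were also called higher at 24 h than in the control and 20 (0.824%) lower. Over all tested genes, 20.1% were called higher and 15.8% lower in that comparison. Of the 2334 genes that fell in the step, 1209 (51.8%) were called lower at 24 h than in the control and 41 (1.76%) higher. As a share of the genes called at 24 h, those also called in the step were 33.2% of the 5147 higher and 29.9% of the 4042 lower. Both comparisons use the same estimate of each gene's spread, whose part in the shared calls was not tested. The shares ranged from 58.9% to 84.6% for genes that rose and from 41.2% to 67.2% for genes that fell over 31 alternatives. Without 15 min replicate 2 and 30 min replicate 3 they were 71.5% and 56.1%.

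The size of the change was also close in both comparisons for the genes that rose. Their median log2 fold change was 0.80 at 24 h against control, beside 0.82 in the step. For the genes that fell it was -0.63 at 24 h against control, beside -0.91 in the step. The step values are the ones that chose the genes and are no independent measure of their change. A limma test of the difference between the comparisons, 24 h minus control less 8 h minus 4 h, called 84 of the genes that rose (3.46%), 26 above and 58 below 0. Of the genes that fell it called 258 (11.1%), 158 above and 100 below 0. Over all tested genes it called 5.8%. For most genes of the step a difference between the comparisons was therefore not detected, which does not show that the changes are equal. Among genes with at least 2-fold changes in the step, 575 of the 766 that rose (75.1%) were called higher at 24 h than in the control, and 575 of the 912 that fell (63.0%) were called lower. Across the 25636 genes, which share libraries within each comparison and are not independent, the log2 fold changes of both comparisons had a Pearson r of 0.633.

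**Figure D4:**
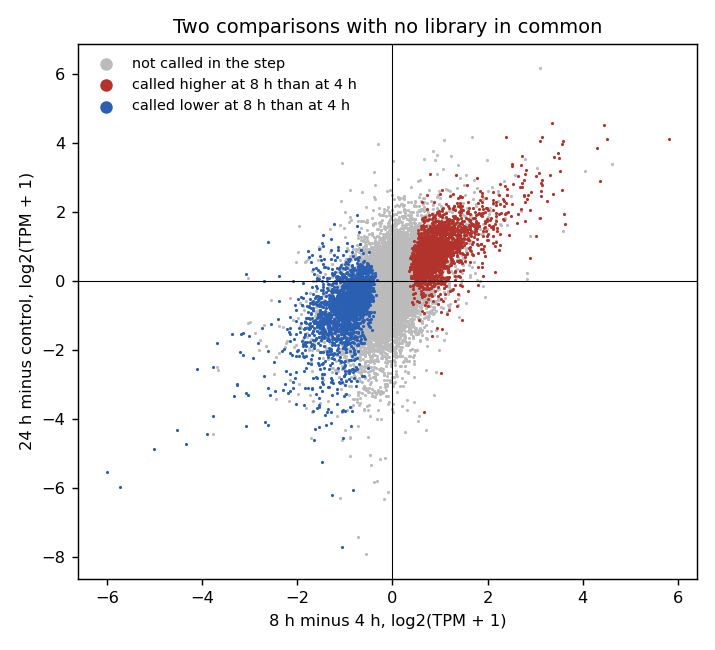
Each point is 1 of 25636 tested genes, with the 8 h minus 4 h difference on the horizontal axis and the 24 h minus control difference on the vertical axis, both on the log2(TPM + 1) scale. Of the genes called higher in the step (red), 94.9% lie above 0 on the vertical axis, and of those called lower (blue) 11.7% do. Over all tested genes this share is 53.3%.

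The comparisons of 15 min, 1 h and 2 h with control are also free of 4 h and 8 h libraries. The medians had the opposite sign to the step at 1 h and 2 h and the same sign at 15 min. Single libraries differed at 1 h and 2 h. On the scale from 4 h to 8 h given above, 1 h replicate 1 lay at 0.0409 for the genes that rose and 0.169 for those that fell. Replicate 2 of 1 h lay at -0.276 and -0.143, and replicate 3 at -0.413 and -0.231. At 2 h, replicate 1 lay at -0.04 and 0.0836, within the range of the control libraries, and replicate 2 at -0.287 and -0.141. At 1 h against control the genes that rose in the step had a median log2 fold change of -0.11 and those that fell 0.12, and 95 of the genes that fell later (4.07%) were called higher at 1 h, against 1.61% of all tested genes. Called lower at 1 h were 28 of the genes that rose later (1.15%), against 1.27% of all tested genes. At 2 h the medians were -0.08 and 0.07, and again 95 of the genes that fell later (4.07%) were called higher, against 1.98% of all tested genes. Called lower at 2 h were 47 of the genes that rose later (1.94%), against 2.21%, so at 1 h and 2 h the share lay above that of all tested genes for the genes that fell and not for those that rose. The genes that fell were also more abundant, with a control median of 22.7 TPM against 8.41 TPM over all tested genes. The part of level in these shares, and in those at 15 min, was not tested. At 15 min the medians had the sign of the step, 0.25 and -0.30, with 137 of the genes that rose (5.64%) called higher, against 4.33% of all tested genes, and 213 of those that fell (9.13%) called lower, against 3.73%. At 15 min the single libraries differed, with replicates 1 and 3 but not replicate 2 towards the 8 h levels, as given above. Pearson's r with the step across the 25636 genes was 0.335 at 15 min, -0.257 at 1 h and -0.186 at 2 h, given as a description.

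The genes with the largest rises were listed at 5.01 TPM or less in all 4 h libraries. Potri.005G158000 had 161, 184 and 102 TPM in the 8 h libraries, against 0, 5.01 and 1.89 TPM in the 4 h libraries. The lowest 8 h library was replicate 3 and the highest 4 h library replicate 2; that the times do not overlap was a condition for naming all 4 genes. Its log2 fold change was 5.81 (SE 1.07, limma adjusted p = 0.00331). The size depends on the pseudocount, as 1 of the 4 h libraries is listed at 0, and was 4.42 with a pseudocount of 5 TPM and 7.17 with 0.1 TPM. At 24 h its libraries held 196, 302 and 138 TPM, and a difference between 24 h and 8 h was not detected (log2 fold change 0.47, SE 1.07, limma adjusted p = 0.931). The control libraries held 12.8, 8.28 and 11.4 TPM. At 15 min it was listed at 158, 9.70 and 65.7 TPM in replicates 1, 2 and 3, so replicates 1 and 3 were high and replicate 2 was near the control.

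Potri.007G023366 had 41.2, 47.3 and 59.9 TPM in the 8 h libraries, against 0.402, 0.713 and 3.41 TPM in the 4 h libraries. The log2 fold change was 4.51 (SE 0.95, limma adjusted p = 0.00603), and it was 3.08 with a pseudocount of 5 TPM and 5.44 with 0.1 TPM. Its mean was 49.5 ± 9.55 TPM at 8 h and 1.51 ± 1.66 TPM at 4 h (SD, n = 3 each). It stayed high at 24 h, with 69.9, 81.5 and 43.8 TPM, against 5.88, 1.18 and 2.37 TPM in the control (log2 fold change 4.11, limma adjusted p = 0.00309). The pattern at 15 min resembled that of the first gene, with 43.8 and 20.7 TPM in replicates 1 and 3 and 0 in replicate 2. From 30 min to 2 h all libraries lay between 0 and 5.79 TPM.

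The genes with the largest falls were listed at or next to 0 at 8 h. Potri.003G005000 had 0, 0.0112 and 0 TPM in the 8 h libraries, against 119, 63.9 and 33.5 TPM in the 4 h libraries (limma adjusted p = 0.00319). No fold is given, because a value of 0 in these tables need not mean that the transcript was absent. The 24 h libraries were all listed at 0, and the control libraries held 24.5, 52.5 and 70.8 TPM. At 15 min the gene was listed at 0 in replicate 1, at 98.7 TPM in replicate 2 and at 9.0 TPM in replicate 3. In the other libraries from 30 min to 2 h it lay between 14.8 and 166 TPM, with 1 h replicate 1 the lowest.

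Potri.T172005 was listed at 0 in all 8 h libraries, against 73.1, 47.1 and 40.3 TPM in the 4 h libraries (limma adjusted p = 0.00211). It was also at 0 in all 24 h libraries and between 45.9 and 103 TPM in the control libraries. The 15 min libraries held 0.738, 127 and 6.90 TPM, again with replicates 1 and 3 towards the 8 h level and replicate 2 away from it. The difference of 24 h and control from the step was not detected for any of the 4 genes, with limma adjusted p values of 0.634, 0.930, 0.925 and 0.959 in the order described. Each of these genes has 1 transcript in the transcript table, so its transcript value is the same measurement as its gene value.

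**Figure D5:**
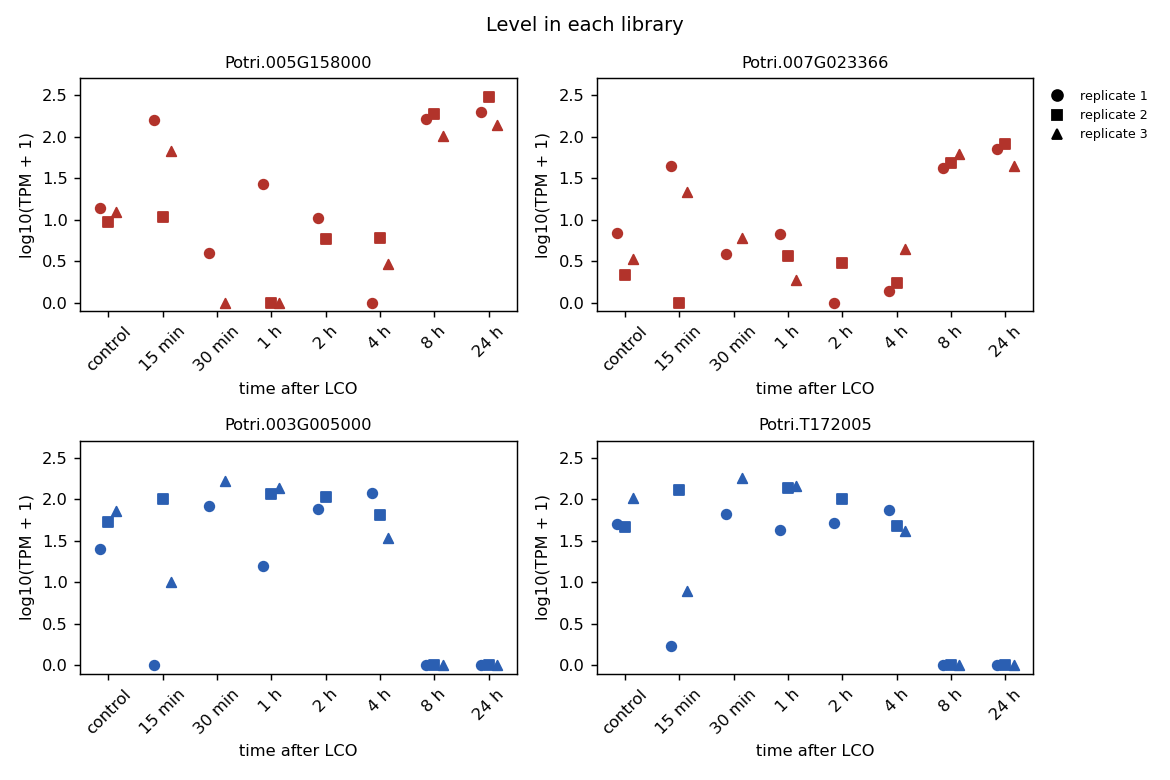
Panels give the level of each of 4 genes in the 22 libraries as log10(TPM + 1), by time after LCO, with a symbol per replicate. Potri.005G158000 and Potri.007G023366 (red) lie high at 8 h and 24 h, Potri.003G005000 and Potri.T172005 (blue) lie at or next to 0 there, and 15 min replicates 1 and 3 lie towards the 8 h level in all 4 panels.

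Few genes went between 0 and a clear level in all libraries. Of the tested genes, 11 were listed at 0 in all 4 h libraries and at 1 TPM or more in all 8 h libraries, with a highest single value of 12.3 TPM. Of these 11, 6 were listed at 0 in all control libraries. A gene with such low values passes the filter on the mean over 22 libraries mainly through other groups, so their levels elsewhere are not read further. In the other direction, 9 genes were at 0 in all 8 h libraries and at 1 TPM or more in all 4 h libraries. At 24 h, 5 of these 9 were at 0 in all libraries and none was above 0 in all of them. Their 4 h means had a median of 8.40 TPM, so the 4 h values themselves helped these genes to pass the filter. These counts are a description and are not read as a lasting fall.

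The transcript table was normalized and tested apart from the gene table but comes from the same libraries. Only 3792 genes have at least 2 tested transcripts, so for most genes both tables hold largely the same measurement. Shared calls between the tables therefore follow in large part from this and are no independent evidence of the step. Of 29885 transcripts tested, 4967 were called (16.6%), 2395 higher (8.01%) and 2572 lower (8.61%) at 8 h than at 4 h. Of the genes that rose, 1875 (77.2%) had a transcript that rose and 33 had one that fell. Of the genes that fell, 1937 (83.0%) had a transcript that fell and 2 had one that rose.

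Some genes had transcripts called in opposite directions between 4 h and 8 h. Of 3792 genes with at least 2 tested transcripts, 191 had 1 transcript that rose and another that fell, out of 277 with at least 2 called transcripts. In 156 of the 191 genes (81.7%) the most abundant transcript at 8 h was not the one at 4 h. Over all 3792 genes this share was 27.5%. The 191 genes were chosen by opposite calls in the same comparison, so a change of main transcript and a wide gap follow in part from the choice. The gap between the rising and the falling transcript was 4.28 on the log2 scale at the median and ranged from 1.94 to 10.3. As whole genes, 29 of the 191 were called higher, 2 lower and 160 not, with a median absolute log2 fold change of 0.29. Over all tested genes 18.6% were called, 9.47% higher and 9.1% lower, so not being called is not particular to the 191 genes. Kallisto assigns reads that match several transcripts by estimation, and the error of this step was not included here. The number of such genes was 553 with only the 6 libraries fitted, 100 with a pseudocount of 0.1 TPM and 110 with no filter. Leaving out 4 h replicate 1 gave 28 and 4 h replicate 2 gave 64, and leaving out 8 h replicates 1, 2 and 3 in turn gave 72, 71 and 61.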

How the data were processed

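Roots were profiled by RNA sequencing, and per the labels' protocols each library pools 4 plants. The submitters' processing notes name kallisto, which estimates transcript abundance, and sleuth, without versions. The deposited values are the natural log (ln) of TPM + 1, quantile-normalized by the authors, as the table names and values show: library totals are 936253 to 936552 TPM with base e and 204126 to 204330 with base 2. Transcript identifiers in the deposited table end in v3.1, and beyond this suffix the genome build was not named in the labels. TPM keeps no read depth, so no counting interval is given. Identifiers are Potri names, of Populus trichocarpa, while the plants are a hybrid of other species; the effect on the values was not examined.

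Values were back-transformed and taken as log2(TPM + 1). Genes or transcripts averaging 1 TPM or more over 22 libraries were tested in limma 3.58.1 under R 4.3.3, with 1 mean per group, a shared spread (14 residual degrees of freedom), empirical Bayes moderation with a trend, and two-sided contrasts. Calls were made at a Benjamini-Hochberg adjusted p under 0.05. On simulated data over 25636 genes for 8 h against 4 h, 3 of 50 genes changed 1.5-fold, 29 changed 2-fold, 45 changed 4-fold and 47 changed 8-fold were called, with 10 false calls. The simulation changed far fewer genes than were called here, none of them at the lowest levels. It gave each gene the same spread in all groups, while the median SD (log2) was 0.173 at 4 h and 8 h and 0.319 at 15 min. These rates therefore do not carry over to the real comparison. Named genes are the 2 largest rises and falls among called genes with at least 10 TPM at either time and no overlap of libraries. Gene lists and promoter motifs, planned by gene description, were not used, as no descriptions were used here. The planned design assumed TPM rather than its log. The members and lists were chosen with earlier results of these data known, and the comparisons with 24 h, 15 min, 1 h and 2 h, the level ranges and the library positions were added after seeing the data. Plots used matplotlib 3.10.9 under Python 3.11.15.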

Additional observations from a re-analysis of the deposited data

How the results depend on the processing

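The log2 fold changes of all 4 named genes kept their direction and call in each of 33 alternatives, and their limma adjusted p lay between 7.99e-07 and 0.0388. Their direction was largely fixed in advance, because they were named as called genes whose libraries do not overlap. Leaving out a library of another group cannot change their estimate. Their kept direction is therefore no evidence of robustness. The counts moved. The cause of moves over 1.5 times was not tested. With only the 6 libraries fitted, 8986 genes were called, 4697 higher and 4289 lower, with 9373 transcripts and 553 genes with opposite transcripts. Library weights gave 10842 genes, 5727 higher and 5115 lower, of which 4022 and 2891 were called the same way at 24 h against control. Without 15 min replicate 2 and 30 min replicate 3 these numbers were 7399, 3886, 3513, 2778 and 1970. A pseudocount of 0.1 TPM gave 100 genes with opposite transcripts and no filter gave 110. Leaving out single libraries of 4 h or 8 h gave 1335 to 3374 genes, 584 to 1711 higher, 751 to 1663 lower, 494 to 1167 and 505 to 860 also called at 24 h, 1210 to 3500 transcripts and 28 to 142 genes with opposite transcripts. Leaving out single libraries of other groups, chosen after seeing the data, gave 4221 to 6470 genes, 2122 to 3408 higher, 2099 to 3062 lower, and 1251 to 2446 and 879 to 1710 also called at 24 h. The labels give the groups the same replicate numbers, but deviations of same-numbered 8 h and 4 h libraries correlated at -0.0887, 0.0347 and 0.0818, so the numbers were not taken as pairs. A replicate block gave 5021 genes in all libraries and 7589 (3895 higher, 3694 lower) in the 6 libraries. In the alternatives not named here the counts stayed within 1.5 times. The median change of all tested genes stayed between -0.01 and 0.01 (log2), which quantile normalization fixes in part.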
